A study of Mus musculus with 2 samples.

Results

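Cytoplasmic ribosomal protein genes were followed through the single cells of 2 mouse eye libraries, by their share of all transcripts and by each gene's own level. The members were taken by gene symbol: every feature named Rpl or Rps followed by a digit, with Rplp0, Rplp1, Rplp2 and Rpsa, and without the Rps6k kinases, names ending in l and names with -ps. This gave 81 of the 32286 features, 48 of the large and 33 of the small subunit by name. Of these, 77 encode core proteins of the ribosome. The other 4 are Rpl22l1 and Rpl7l1 (paralogs of Rpl22 and Rpl7), Rps19bp1 (a binding protein of Rps19) and Rps27rt (a near-identical copy of Rps27). All 81 were measured, with at least 20 counts over both libraries, in every cell class compared.

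Both libraries came from the optic cup of Abca4KO mice, a model without the retinoid transporter of photoreceptor outer segments. The library labelled GFP came from eyes treated with AAV2.8-GFP and the library labelled sponge from eyes treated with AAV2.8-Sponge.mir181. AAV2.8 is the labels' name for the adeno-associated viral vector, and a sponge is a transcript that carries many binding sites for a microRNA, here miR-181a and miR-181b. By the series text, vectors were placed under the retina at 2 months of age, sponge on 1 side and control vector in the fellow eye, and tissue was taken 4 months after treatment. The age on both samples is 4 months, which does not match that schedule. The tissue was dissociated with papain and counted with 10x Genomics 3' chemistry, which tags the 3' end of each transcript and counts unique molecular identifiers (UMIs). The sources used here give neither the promoter of the vectors nor the number of mice, and cells are not assigned to mice. Each group held 1 library, so there is no replicate error, no test was made, and intervals (95%, exact) cover counting error only.

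The ribosome translates messenger RNA into protein. Its large subunit joins amino acids and its small subunit reads the message, and each is a particle of ribosomal RNA and many small, mostly basic proteins. The messages of these proteins are short and abundant, and they begin with a run of pyrimidines (the TOP motif) through which the mTOR pathway and the RNA-binding protein Larp1 set their translation and stability. Growing and dividing cells are known to make more ribosomes than resting cells.

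The start of these genes is shown because it carries that shared motif. Promoter entries were found for 61 of the 81 members (RefSeq, GRCm38.p6). A run of at least 7 pyrimidines lay within 15 bases before to 25 bases after the start in 35 of these 61 (57.4%), against 26.7% of 27025 genes. The letters CGGAAG, on either strand of the 300-base window, were in 41 (67.2%), against 18.8% of genes, and TATAAA within 40 bases before the start was in 1 (1.64%), against 2.78%. The windows run from 10 bases before to 20 bases after the annotated start. They show, among core members with a lone promoter entry, the 4 that were lowest and then the 4 that were highest relative to the other members in the library labelled sponge. Capitals mark the longest pyrimidine run.
Rpl35: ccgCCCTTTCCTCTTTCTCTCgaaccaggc
Rpl39: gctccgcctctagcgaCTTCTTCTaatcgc
Rpl38: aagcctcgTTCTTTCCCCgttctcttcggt
Rps27: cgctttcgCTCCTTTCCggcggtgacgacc
Rplp0: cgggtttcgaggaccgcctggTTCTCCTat
Rps3: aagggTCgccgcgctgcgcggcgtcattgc
Rpl7a: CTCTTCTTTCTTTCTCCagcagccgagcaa
Rps6: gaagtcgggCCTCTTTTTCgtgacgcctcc
They lie, in that order, at chr2:39005112-39005141 (minus strand), chrX:37085203-37085232 (minus), chr11:114668570-114668599 (plus), chr3:90213629-90213658 (minus), chr5:115559457-115559486 (plus), chr7:99483690-99483719 (minus), chr2:26910797-26910826 (plus) and chr4:86857348-86857377 (minus). The run was 18 bases long in Rpl35 and 17 in Rpl7a, which stand at opposite ends of the members, so its length in this window did not separate the lower from the higher set. A run that is shorter here says only that these letters are not in this window.

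Of the 39461 and 23267 barcodes, 39285 labelled GFP (median depth 2415 UMIs) and 23200 labelled sponge (2980.5 UMIs) passed the filters. The kept cells labelled GFP held 12 UMIs of eGFP and those labelled sponge 5484, which goes against the labels unless the sponge vector carries eGFP too, and the sources used here do not say whether it does. Every direction given here therefore rests on the labels alone. With the labels exchanged each ratio turns over, so that the share in Müller cluster 3, rods and ocular surface epithelium, taken as GFP over sponge, is 1.58, 1.45 and 0.741, and the order of classes and members runs the other way. Abca4, the gene named in the genotype, had 8855 and 7383 UMIs, and counts at its 3' end cannot check a deletion elsewhere in it. The libraries shared 287 kept barcodes (0.731% and 1.24% of their kept cells). Clustering without the 81 members gave 28 clusters, of which those with enough markers were given 13 classes: rods, cones, bipolar cells, 2 separate clusters of Müller glia (numbered 3 and 10), retinal pigment epithelium (RPE), microglia and macrophages, T and NK cells, endothelial cells, pericytes and smooth muscle, fibroblasts, melanocytes and ocular surface epithelium. Each name means cells like that type by their markers. All 12 rod markers were at least 2-fold over the median cluster in the rod class, yet none was among its 10 leading genes. Müller cluster 10 led with Gfap and Lcn2, the microglia and macrophage class with the immunoglobulin genes Igkc and Igha beside C1qa and Lyz2, and fibroblasts held Igkc among their leading genes. A total of 12 unnamed clusters held 16160 and 9153 cells. Of the 11 with enough cells to compare, 10 had a lower ribosomal protein share in the library labelled sponge (ratios 0.591 to 0.975) and 1 a higher share (1.33).

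Ribosomal protein transcripts made up 5.41% of all UMIs labelled GFP (95% interval 5.40 to 5.41) and 5.37% of those labelled sponge (5.37 to 5.38), a ratio of 0.994. Such totals weigh deep cells more, and the median single cell held 5.11% labelled GFP and 4.30% labelled sponge. The near-equal totals hid differences of opposite sign between the cell classes. By label, sponge had the lower share in retinal neurons, Müller glia, RPE and pericytes, a near equal share in endothelial cells, and the higher share in fibroblasts, melanocytes, immune cells and ocular surface epithelium. By the point value it was higher in 6 of 13 classes, which counts endothelial cells, whose interval of the ratio holds 1.

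In the library labelled GFP the order of the classes ran from ocular surface epithelium (10.2%), T and NK cells (8.43%), microglia and macrophages (7.85%), melanocytes (7.52%), fibroblasts (6.69%) and endothelial cells (6.59%) down to pericytes and smooth muscle (5.49%), rods (5.02%), cones (5.01%), Müller cluster 10 (4.93%), RPE (4.54%), bipolar cells (4.45%) and Müller cluster 3 (4.15%). Rods and cones lay within their counting intervals of each other there. The library labelled sponge kept epithelium at the top and Müller cluster 3 at the bottom but spread the classes further, from 13.8% to 2.62%. Within each class single cells varied widely. The middle 50% of rods labelled GFP held 4.23% to 5.87%, and of epithelial cells 5.56% to 14.3%.

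**Figure D1:**
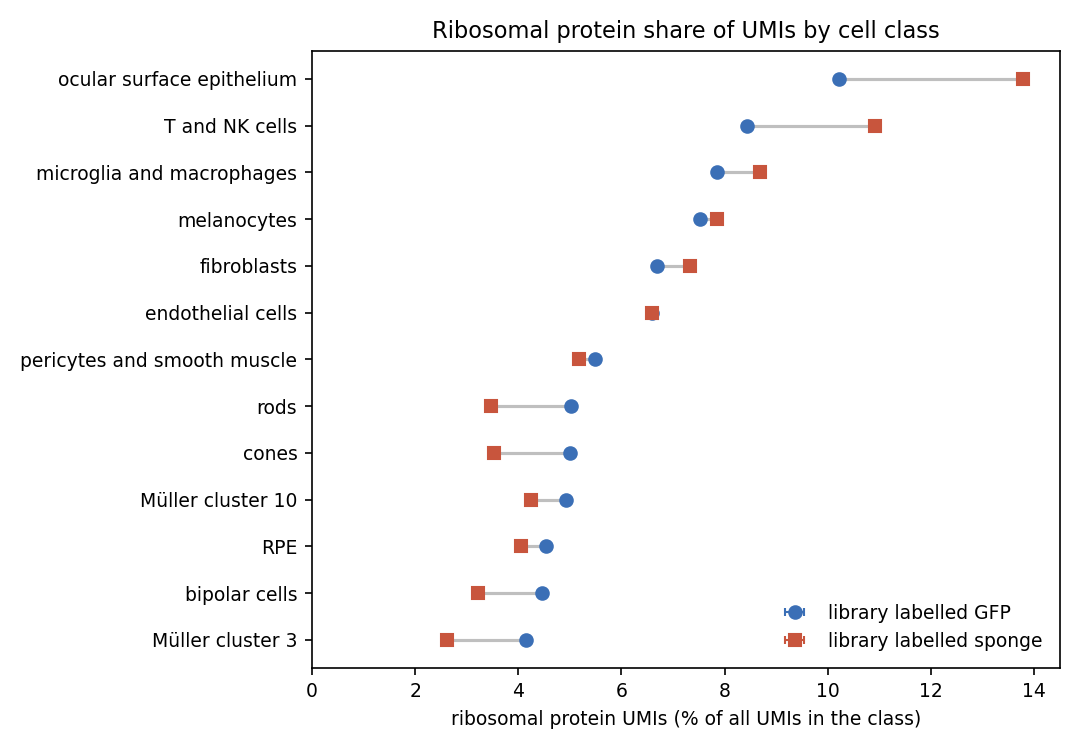
Share of ribosomal protein UMIs (horizontal axis, percent of all UMIs of the class) in the 13 classes, with a circle for the library labelled GFP and a square for the library labelled sponge joined by a grey line. Counting intervals are narrower than the symbols. The square lies to the right of the circle in epithelium (13.8% against 10.2%) and to its left in Müller cluster 3 (2.62% against 4.15%).

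Photoreceptors, bipolar cells and Müller glia had the lower shares in the library labelled sponge. Rods, the dim-light photoreceptors, had 5.02% labelled GFP and 3.47% labelled sponge, a ratio of 0.692 (0.689 to 0.695). Cones, which serve colour and daylight vision, had 5.01% and 3.52% (ratio 0.703), and bipolar cells, which relay photoreceptor signals, had 4.45% and 3.22% (ratio 0.722). Müller cluster 3, radial glia of the retina, had the lowest ratio of the 13 classes, 0.631 (0.628 to 0.635), at 4.15% and 2.62%. In bipolar cells, Müller cluster 3 and RPE the cells of the libraries fell mostly into different finer clusters. Rods did so only in part, with 2418 of 5499 cells labelled sponge in the main finer cluster of those labelled GFP. The libraries were clustered together without batch correction, so a different mix of cells cannot be told apart from a shift between libraries. Its part in the ratios of these classes was not tested. Müller cluster 10, the Gfap-led cluster, differed less, with 4.93% and 4.24% (ratio 0.861, 0.856 to 0.866). RPE, the pigmented layer that supports the photoreceptors and that a subretinal injection reaches, had 4.54% and 4.06% (ratio 0.895).

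Of the other 7 classes, 5 had the higher share in the library labelled sponge, endothelial cells were equal within counting error, and pericytes and smooth muscle had the lower share. Ocular surface epithelium, the keratin-expressing cover of the eye, had 10.2% and 13.8% (ratio 1.35). T and NK cells had 8.43% and 10.9% (ratio 1.30, 1.28 to 1.31). Microglia and macrophages had 7.85% and 8.69% (ratio 1.11), fibroblasts 6.69% and 7.33% (ratio 1.10) and melanocytes 7.52% and 7.86% (ratio 1.04). Endothelial cells had 6.59% in each library, with an interval of the ratio from 0.995 to 1.01 that holds 1, and pericytes and smooth muscle had 5.49% and 5.19% (ratio 0.944).

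Depth differed between the libraries within classes, and its part in the ratios was not tested. Median UMIs per cell, sponge over GFP, were 0.529 in RPE, 0.930 in microglia and macrophages, 1.43 in rods, 1.99 in cones, 2.66 in bipolar cells, 2.99 in Müller cluster 3 and 4.03 in ocular surface epithelium. The ribosomal protein share was lower in deeper cells of most classes: rods labelled GFP held 6.05% at 500 to 1000 UMIs, 5.21% at 1000 to 2000 and 4.67% at 2000 to 4000. At 2000 to 4000 UMIs in both libraries the share was 4.67% and 3.38% in rods, 4.43% and 3.24% in bipolar cells, 4.57% and 3.70% in cones and 4.11% and 3.004% in Müller cluster 3. These differences had the same sign as without the limit. At 1000 to 2000 UMIs the ratio was 0.762 in rods but 0.972 in cones, 0.961 in Müller cluster 3 and 1.07 in bipolar cells, the last from 125 bipolar cells labelled sponge. At 4000 to 8000 UMIs, the bin with most bipolar cells labelled sponge, their share was 3.42% and 3.34% (337 and 1099 cells, ratio 0.974). The lower share of bipolar cells was thus seen at 2000 to 4000 UMIs (ratio 0.730) and hardly at the depths on either side, while Müller cluster 3 was also lower at 4000 to 8000 UMIs (3.66% and 2.42%). Fibroblasts at 2000 to 4000 UMIs held 6.86% and 9.47%, a wider difference than over all depths, from 63 cells labelled sponge. Endothelial cells, equal over all depths, held 6.71% and 8.54%. RPE held 5.21% and 5.30%, and at 4000 to 8000 UMIs 4.48% and 4.598%, so that its lower share was not seen at those depths. Müller cluster 10 had 5.15% and 6.83% at 2000 to 4000 UMIs, the opposite of its direction over all depths. Ocular surface epithelium was higher in the library labelled sponge in its deep cells, at 9.92% and 16.4% for 8000 to 16000 UMIs and 9.18% and 13.7% from 16000 UMIs up, but not at 1000 to 2000 UMIs (10.3% and 7.34%, from 80 and 46 cells) or at 4000 to 8000 UMIs (ratio 0.882, with 25 cells labelled sponge).

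**Figure D2:**
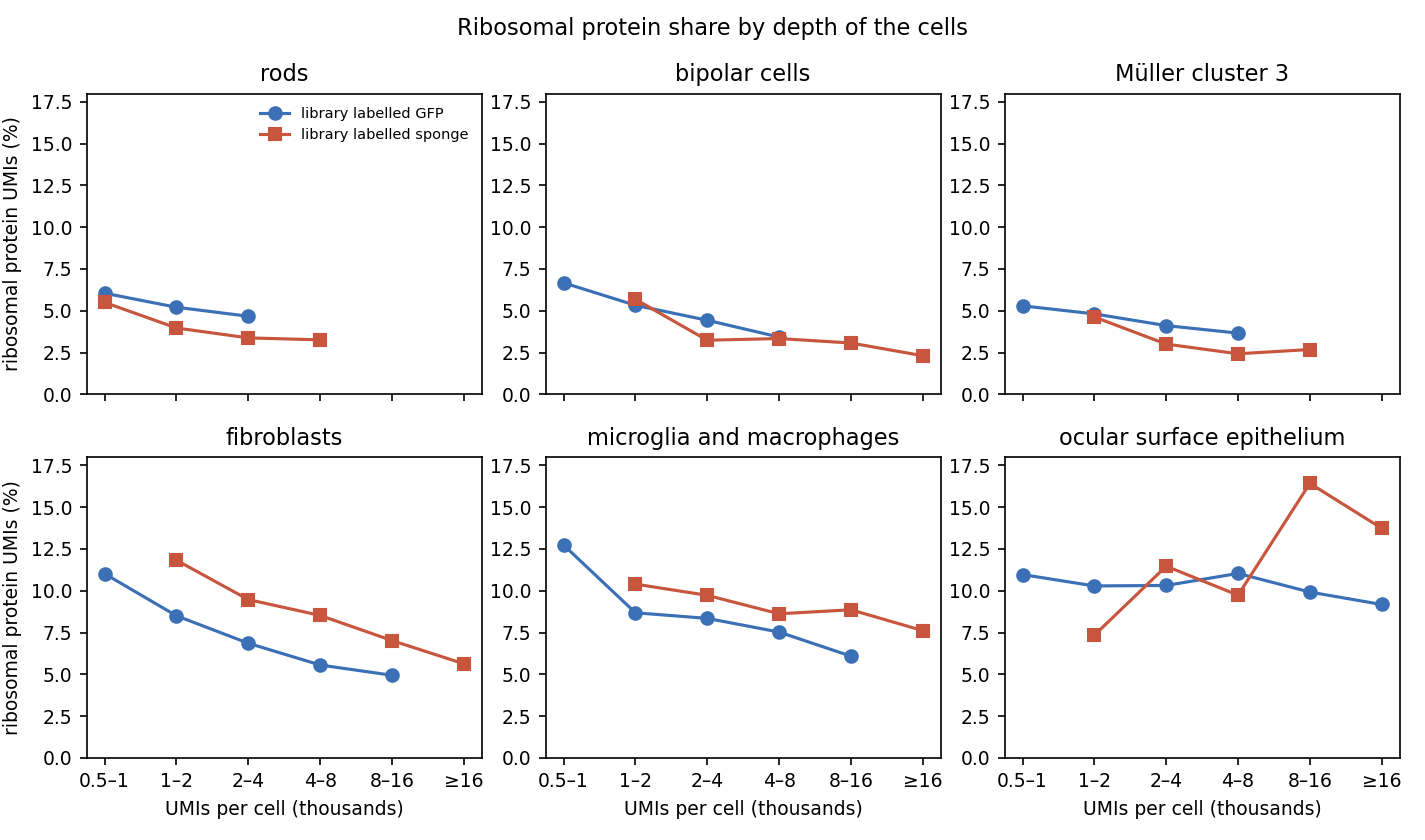
Ribosomal protein share (vertical axis, percent of UMIs) against the depth of the cells (horizontal axis, UMIs per cell in bins labelled in units of 1000) for 6 classes, with circles for the library labelled GFP and squares for the library labelled sponge. Bins with under 20 cells are left out. The squares of rods lie below the circles in every bin drawn for both libraries, those of fibroblasts lie above them, and those of epithelium cross.

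Other features also differed between the libraries within classes. Mitochondrial UMIs were lower in the library labelled sponge in all 13 classes, for example 13.6% and 8.53% in rods, 9.41% and 3.91% in Müller cluster 3, and 5.996% and 3.15% in epithelium. A list of 12 rod genes, which overlaps the rod markers used for naming but is not the same, gauges free RNA in classes other than photoreceptors. These genes took 1.08% and 0.487% of UMIs in Müller cluster 3 and 0.504% and 0.179% in epithelium. In each, 12 of 12 were at least 1.5-fold lower, where 15.0% and 39.9% of all genes were. In fibroblasts the 12 genes took 0.984% and 0.453%. These values moved in the same direction in classes whose ribosomal protein share was lower and in classes whose share was higher, and their part in the result was not tested. Leaving the rod genes out of the total changed no direction among the 11 classes tried except endothelial cells, whose ratio lies at 1.

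The mix of subtypes inside a class was examined with finer clusters. In 8 of the 13 classes the same finer cluster held most cells of each library, and in the other 5 it did not. Müller cluster 3 had 2081 of 2866 cells labelled GFP in finer cluster 7 and 995 of 1161 labelled sponge in finer cluster 12, bipolar cells 2544 of 4288 in cluster 4 and 1483 of 2350 in cluster 8, and RPE 808 of 1022 in cluster 23 and 334 of 505 in cluster 35. Rods had 2702 of 3837 in cluster 0 and 2887 of 5499 in cluster 3, but cluster 0 also held 2418 rods labelled sponge. Microglia and macrophages had 1024 of 1210 in cluster 14 and 378 of 714 in cluster 22. Within those clusters the ratio was nearer to 1 than the class ratio in Müller cluster 3 (0.926 and 0.746 against 0.631) and bipolar cells (0.912 and 0.849 against 0.722), slightly nearer in rods (0.757 and 0.737 against 0.692), and further from 1 in RPE (0.816 and 0.837 against 0.895). With finer clusters weighted equally the log2 ratio of Müller cluster 3 was -0.254, against -0.66 for the class. All 4 finer clusters of rods with at least 20 cells a library were lower in the library labelled sponge (ratios 0.737 to 0.769), as were both of RPE, all 3 of Müller cluster 3 (0.746 to 0.926) and all 6 of bipolar cells (0.535 to 0.912). Both clusters of microglia and macrophages were higher (1.10 and 1.11), as were both of ocular surface epithelium (1.15 and 1.35). Fibroblasts did not move as a unit: 1 finer cluster was higher (1.12) and the others lower (0.841 and 0.975). Melanocytes were lower in both of their finer clusters (0.960 and 0.911) although higher as a class, and endothelial cells were split (0.940 and 1.23).

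The ratio of large-subunit to small-subunit UMIs lay between 1.17 and 1.35 over the classes and libraries, and between the libraries it was 1.23 and 1.25 in rods, 1.27 and 1.34 in Müller cluster 3 and 1.29 and 1.31 in epithelium. Across the 13 classes, the level of a member followed the summed level of the other members, with a median Pearson r of 0.965 labelled GFP and 0.979 labelled sponge (a description over 13 classes of the same library, which differ in depth). The exceptions were Rps19bp1 (-0.567 and -0.115) and Rpl7l1 (-0.398 and -0.0203), which are not core proteins, followed from a distance by the paralog Rpl22l1 (0.792 and 0.860) and by Rpl41 (0.809 and 0.897).

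The members differed by unequal amounts, in an order that recurred over the classes. The log2 ratio of each member, sponge over GFP, was taken on CPM (counts scaled to the total of the class), with 0.5 added to each count. Relative to the median member of the class, 33 members lay above and 29 below in all 13 classes, 62 of 81 in total. By the sign of the point value, 14 members were lower in the library labelled sponge in all 13 classes. In all, 4 were higher (Rpl8, Rpl7l1, Rpl3 and Rplp0), and 63 changed sign between classes. Some of these signs lay within counting error. Examples are Rplp0 in bipolar cells (interval -0.082 to 0.111), Rpl7l1 in cones (-0.26 to 1.09, from 32 and 51 UMIs) and Rpl36a, a lower member, in T and NK cells (-0.34 to 0.19). The share of all genes measured that keep the same sign in all 13 classes was not counted. The counts of recurring members thus have no background and do not show a trait particular to the members. All classes come from the same libraries, so their signs are not independent. Signs depend on the scaling, while the order within a class does not: with median-of-ratios scaling, which shifts all genes by 0.11 log2 in Müller cluster 3, -0.13 in RPE and -0.32 in epithelium, 10 were lower in all 13 classes and 1, Rpl7l1, was higher in all.

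The 14 that were lower in all classes have coding sequences of 75 to 375 nt. Rpl35, at the tunnel exit through which the new protein leaves, was furthest below the median member (median difference -1.10 log2, range -1.21 to -0.92 over the classes). It was followed by Rpl39 (-1.06), which lines that tunnel, Rpl38 (-0.92), known for its part in translating Hox genes, Rps27 (-0.87), Rps21 (-0.86), Rps28 (-0.85), Rpl37 (-0.81), Rps29 (-0.81), Rpl37a (-0.76) and Rpl41 (-0.71), the shortest of all. At the other end stood Rplp0 (0.74), the base of the stalk that recruits elongation factors, Rpl3 (0.73), which lies near the peptidyl transferase centre, Rps3 (0.60), at the entry of the messenger RNA and also a DNA repair protein, and Rpl8 (0.60).

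**Figure D3:**
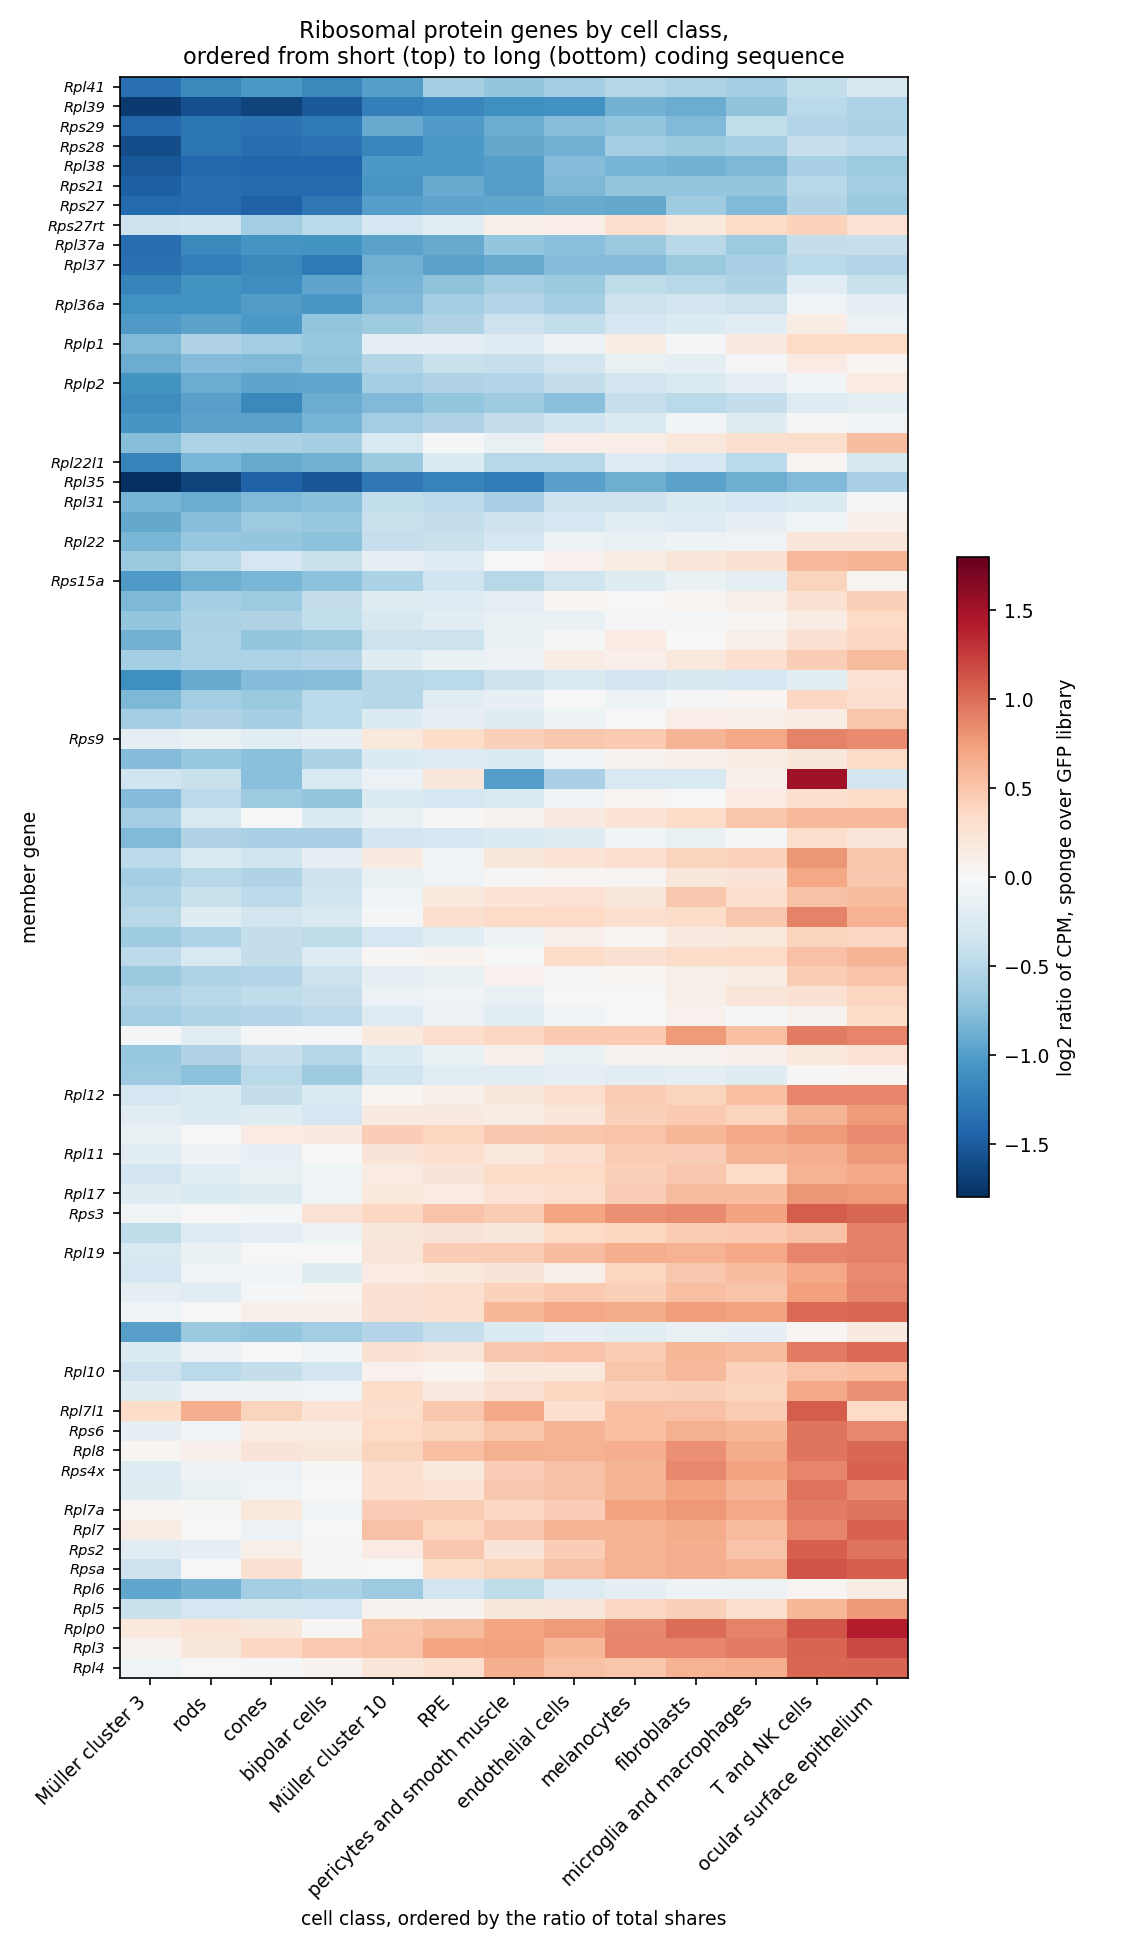
Log2 ratio of CPM, sponge over GFP (colour, red higher and blue lower), of the 81 members (rows, from the shortest coding sequence at the top to the longest at the bottom, with some of the members labelled) in 13 classes (columns, from the lowest to the highest ratio of the total share). Blue gathers at the top and left and red at the bottom and right; Rpl35 reaches -1.79 in Müller cluster 3 and Rplp0 reaches 1.41 in epithelium.

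The order followed coding length. The Spearman correlation between a member's coding length and its log2 ratio was 0.847 over all kept cells and ran from 0.787 in T and NK cells to 0.868 in cones (81 members, which share libraries and depth; a description with no test). With the members sorted by length into 4 groups, the median log2 ratio over all cells was -0.61 in the shortest (75 to 369 nt, 21 members), then -0.10 and 0.28, and 0.53 in the longest (612 to 1257 nt, 20 members). Rods had the same slope at a lower level, with -1.09, -0.56, -0.25 and -0.07. Epithelium had it at a higher level, with -0.29, 0.36, 0.72 and 0.96. In rods, cones, bipolar cells, RPE and both Müller clusters 0 of 21 members of the shortest group were higher, and in epithelium and T and NK cells 20 of 20 were in each of the longer 2 groups.

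Other genes of the same coding length did not show the slope to this degree. Among other measured genes under 1000 nt the same correlation was 0.0895 over all cells (6240 genes) and ran from 0.00308 in epithelium to 0.205 in rods. Genes as abundant as the members, with at least 200 CPM in each library, also differed by length. Of 39 such genes under 300 nt, 11 were higher and the median was -0.27, against 0 of 9 members and a median of -0.89. At 300 to 450 nt, 36 other genes had a median of 0.03 and 32 members one of -0.12. At 450 to 600 nt they lay closer: 30 of 39 other genes were higher (median 0.23), against 12 of 15 members (0.35). Below 600 nt the other abundant genes thus also rose with length, over a smaller range. At 600 to 900 nt, 54 other genes had a median of 0.05 and 17 members one of 0.48. The slope was also present in subsets of the cells: with the stricter filter it was 0.790 to 0.867 over the 13 classes, and in cells of 2000 to 4000 UMIs 0.674 to 0.851 over the 10 classes with 50 such cells per library. Length is taken from the coding sequence and was not separated from other properties that go with it, such as transcript length.

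**Figure D4:**
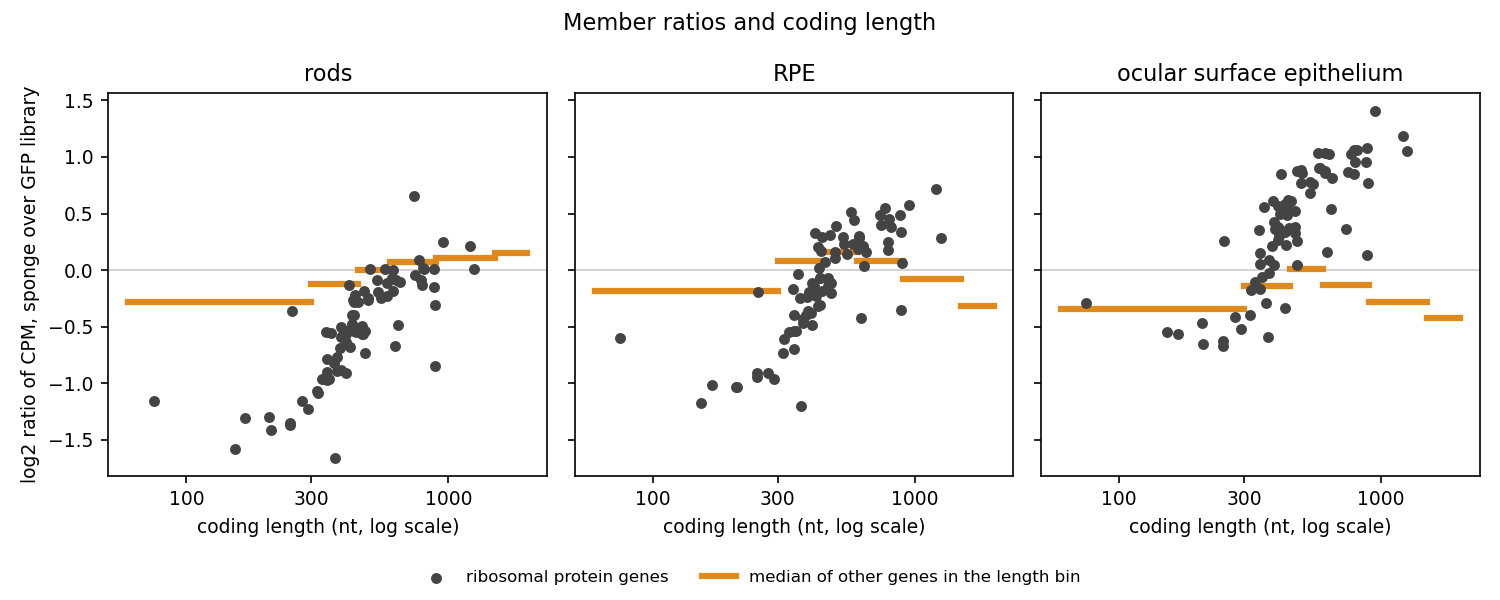
Log2 ratio of CPM, sponge over GFP (vertical axis), against coding length (horizontal axis, log scale, nt) in rods, RPE and ocular surface epithelium. Each point is 1 of the 81 members and orange bars are medians of the other measured genes in a length bin. The points rise to the right in each panel, from -1.67 (Rpl35 in rods) to 1.41 (Rplp0 in epithelium), while the bars lie between -0.42 and 0.16.

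A few members left the trend. Rpl6 (888 nt) was low for its length, with a median difference of -0.29, and Rpl35 was lower than other members of 369 nt and below. Rps9 stood at 0.44, high for the 417 nt used here. That length is a median over annotated transcripts and need not be that of the full protein, so its place off the trend is uncertain. Rps27rt, at 252 nt, stood at 0.02 although Rps27, at 249 nt, stood at -0.87. Rps27rt had 85 and 142 UMIs in rods against 4457 and 3696 of Rps27, and the sources used here do not say how reads were split between near-identical copies, so both values are uncertain.

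In rods, 70 of 81 members were lower in the library labelled sponge, with a median log2 ratio of -0.51 against 0.08 over the 15659 genes measured. Of the members, 29 were at least 1.5-fold lower, where 13.3% of all genes were, and 1 was at least 1.5-fold higher, where 9.45% were. Rpl35 stood at 325 CPM (312 to 339) labelled GFP and 102 CPM (97.3 to 108) labelled sponge, a log2 ratio of -1.67 (-1.76 to -1.57). Rpl39 went from 774 to 259 CPM and Rpl38 from 814 to 306 CPM. Each was lower by more than its counting interval. Rpl7l1, which works in making the large subunit rather than in it, was the member past 1.5-fold higher, at 25.9 CPM (22.2 to 30.1) and 41.0 CPM (37.8 to 44.5). Rplp0 (168 and 199.5 CPM) and Rpl3 (369 and 427 CPM) were also higher, so that members with long coding sequences stood near or above equality while the total was lower.

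Cones and bipolar cells had many of the same names at their ends. Cones had 34 of 81 members at least 1.5-fold lower (11.9% of 11138 genes) and 0 higher (13.4%), and bipolar cells had 29 lower (17.8% of 16321 genes) and 0 higher (7.08%). Rpl39 was the lowest in cones, at 847 CPM (800.1 to 895.5) and 267 CPM (243.5 to 293), a log2 ratio of -1.66. In bipolar cells it stood at 705 and 247 CPM (-1.51). Rpl3 was higher in both, at 360 and 467 CPM in cones (0.38) and 331 and 459 CPM in bipolar cells (0.47). Rpsa, the small-subunit protein also known as the laminin receptor, was higher in cones (555 and 669 CPM), and Rps3 in bipolar cells (367 and 438 CPM).

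Müller cluster 3 had more members past 1.5-fold than Müller cluster 10. In cluster 3, 75 of 81 members were lower and 44 were at least 1.5-fold lower, where 15.0% of 15385 genes were, and 0 were higher by that fold, where 12.2% were. Rpl35 stood at 288 CPM (276 to 301) and 83.3 CPM (77.3 to 89.7), a log2 ratio of -1.79, and Rps28, a small-subunit protein, at 426 and 141 CPM (-1.59). In cluster 10, 18 were lower by 1.5-fold (13.7% of 14572 genes) and 0 higher (12.4%). Rpl35 had 325.5 and 134 CPM there (-1.29), and Rpl7, a large-subunit protein, was the highest at 539 and 777 CPM (0.53). A further Müller cluster with interferon-response genes, such as Iigp1 and Gbp4, had 12 cells labelled GFP and was not compared.

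RPE had 13 members at least 1.5-fold lower, where 28.4% of 14704 genes were, and 1 higher, where 9.28% were. Rpl39 had 810 CPM (790 to 831) and 358 CPM (345 to 373), a log2 ratio of -1.18. Rpl3, the member past the fold upward, had 268.9 CPM (257 to 281) and 441 CPM (425 to 456), 0.71. Rpl8 and Rplp0 followed at 442 and 645 CPM and at 170 and 253 CPM. By the median, cells of this class were deeper in the library labelled GFP (6234 against 3299 UMIs). Cells of 16000 UMIs or more numbered 63 of 1022 labelled GFP and 160 of 505 labelled sponge. Such deep cells weigh more in summed counts, so the class was not deeper in 1 library throughout.

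Ocular surface epithelium and T and NK cells had the opposite balance. In epithelium, 63 of 81 members were higher and 31 were at least 1.5-fold higher, where 10.8% of 15803 genes were, while 4 were lower by that fold, where 39.9% were. Rplp0 had 1004 CPM (981 to 1027) labelled GFP and 2662 CPM (2634 to 2691), a log2 ratio of 1.41, and Rpl3 had 491 and 1118 CPM (1.19). Rpsa had 896 and 1895 CPM (1.08). Rps27 was the lowest named member at 1318 and 826 CPM (-0.67), so that short members were lower here too. T and NK cells had 34 members at least 1.5-fold higher (22.1% of 7952 genes) and 1 lower (17.0%). Rpsa had 1015 CPM (930 to 1105) and 2216 CPM (2093 to 2345), 1.13, Rps3 had 697 and 1478 CPM (1.08), and Rpl35, the member past the fold downward, had 540 and 311 CPM (-0.79). The intervals are wider in this class of 188 and 92 cells.

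The remaining classes lay between. Fibroblasts had 18 members at least 1.5-fold higher (15.8% of 15635 genes) and 8 lower (20.5%), microglia and macrophages 15 higher (13.4% of 14444) and 8 lower (22.1%), and melanocytes 12 higher (12.3% of 14392) and 9 lower (23.6%). Endothelial cells had 7 higher (15.5% of 13942) and 13 lower (16.0%), so their equal total was made of members above and below. Pericytes and smooth muscle had 6 higher (18.1% of 11530) and 13 lower (12.7%). The same names stood at the ends: Rplp0 had 294 and 593 CPM in fibroblasts (1.01), 377 and 700.0 CPM in microglia and macrophages (0.89) and 246 and 419 CPM in endothelial cells (0.77), while Rpl39 had 1180 and 632 CPM in fibroblasts (-0.90) and 1036 and 487 CPM in endothelial cells (-1.09). Rps4x, the X-linked small-subunit protein, was among the highest in fibroblasts (814 and 1477 CPM) and in microglia and macrophages (937 and 1550 CPM). Over all kept cells 5 members were at least 1.5-fold higher, where 10.0% of 22929 genes were, and 11 lower, where 9.72% were.

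Parts of the ribosome did not move as units. Of the P stalk, which recruits elongation factors, Rplp0 was higher by the point value in all 13 classes (lower in bipolar cells with median-of-ratios scaling). Its partners Rplp1 (342 nt) and Rplp2 (345 nt) followed the short members: Rplp2 was lower in 12 of 13 classes and Rplp1 in 9. The 5S particle proteins Rpl5 and Rpl11, which restrain Mdm2 and so stabilise p53 when assembly fails, had the same sign in each class, by unequal amounts. Both were lower in rods (-0.31 and -0.09), cones (-0.29 and -0.14) and Müller cluster 3 (-0.40 and -0.19). In bipolar cells Rpl5 was lower (-0.31) and Rpl11 was equal within counting error, at 608 and 605 CPM (-0.0075, interval -0.053 to 0.038). By the point value both were higher in the other 9 classes, up to 0.77 and 0.78 in epithelium. Of the 8 proteins at the tunnel exit, 0 were higher in rods, cones and Müller cluster 3 and 5 in epithelium, where Rpl17 had 0.76 and Rpl19 0.90. Of all 81 members 11, 10, 6 and 63 were higher in these classes, so these counts show nothing particular to the tunnel exit. At the messenger RNA entry, Rps2 and Rps3 exceeded 1.5-fold in T and NK cells, fibroblasts, melanocytes and epithelium. In these classes 34, 18, 12 and 31 of all 81 members did so, against 22.1%, 15.8%, 12.3% and 10.8% of genes. Fau, also at that entry but outside the rule, did not go with them and followed the short members, as given below. Of 20 ribosomal protein genes whose loss causes Diamond-Blackfan anaemia, a failure of red cell formation, 0 were higher in rods (median -0.61), 10 in endothelial cells (-0.11) and 13 in epithelium (0.28), against medians of -0.51, 0.03 and 0.43 over the 81 members. Of the 4 X-linked members, Rps4x (789 nt) and Rpl10 (642 nt) were higher in 10 and 9 classes, Rpl36a (318 nt) and Rpl39 (153 nt) in 0.

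Rps6, the small-subunit protein that S6 kinases phosphorylate in response to mTOR, was near equal in rods (387.5 and 376 CPM, -0.04) and higher in 11 of 13 classes, up to 582 and 1132 CPM in T and NK cells (0.96). Rpl22l1, the paralog that can replace Rpl22, was lower in 12 of 13 classes. Rps19bp1 had 6 and 19 counts in T and NK cells, where its log2 ratio of 1.52 carried a counting interval of 0.22 to 3.21.

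Some members took a different part of the ribosomal protein UMIs in different cells. These were chosen as the 6 members whose part in the highest class stood furthest over the median class in both libraries. Rplp0 took 0.983% of ribosomal protein UMIs in ocular surface epithelium, against 0.373% in the median class and 0.309% in bipolar cells (library labelled GFP), and 1.93%, 0.631% and 0.432% in the library labelled sponge. Rpl41, a peptide that bridges the subunits, took 3.60% in RPE against 2.02% in the median class, and 2.66% against 1.33% in the library labelled sponge. Rps15a was high in RPE and in T and NK cells, at 2.39% and 2.06% against a median of 1.51% labelled GFP and at 2.08% and 2.10% against 1.22% labelled sponge. Rpl12, which sits at the base of the stalk, was highest in T and NK cells, with 1.42% against 0.949% and 2.01% against 1.16%. The low members Rpl7l1 and Rps19bp1 took most in RPE and Müller cluster 3 (Rpl7l1, 0.0851% and 0.156% in the highest class of each library) and in cones and RPE (Rps19bp1, 0.0949% and 0.0955%).

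RPE also stood apart in the Rpl22 pair. Rpl22, which also acts on RNA outside the ribosome, took 0.581% of ribosomal protein UMIs in RPE, the least of any class, against 0.744% in the median class, and Rpl22l1 took 0.814% there, the most, against 0.551% (library labelled GFP). The library labelled sponge gave 0.492% against 0.651% for Rpl22 and 0.766% against 0.431% for Rpl22l1. The ratio of Rpl22l1 to Rpl22 UMIs was 1.40 and 1.56 in RPE and lay between 0.396 and 0.887 in the other 12 classes of both libraries. The class values are 3' counts, so the ratio compares classes and not the amounts of the pair.

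**Figure D5:**
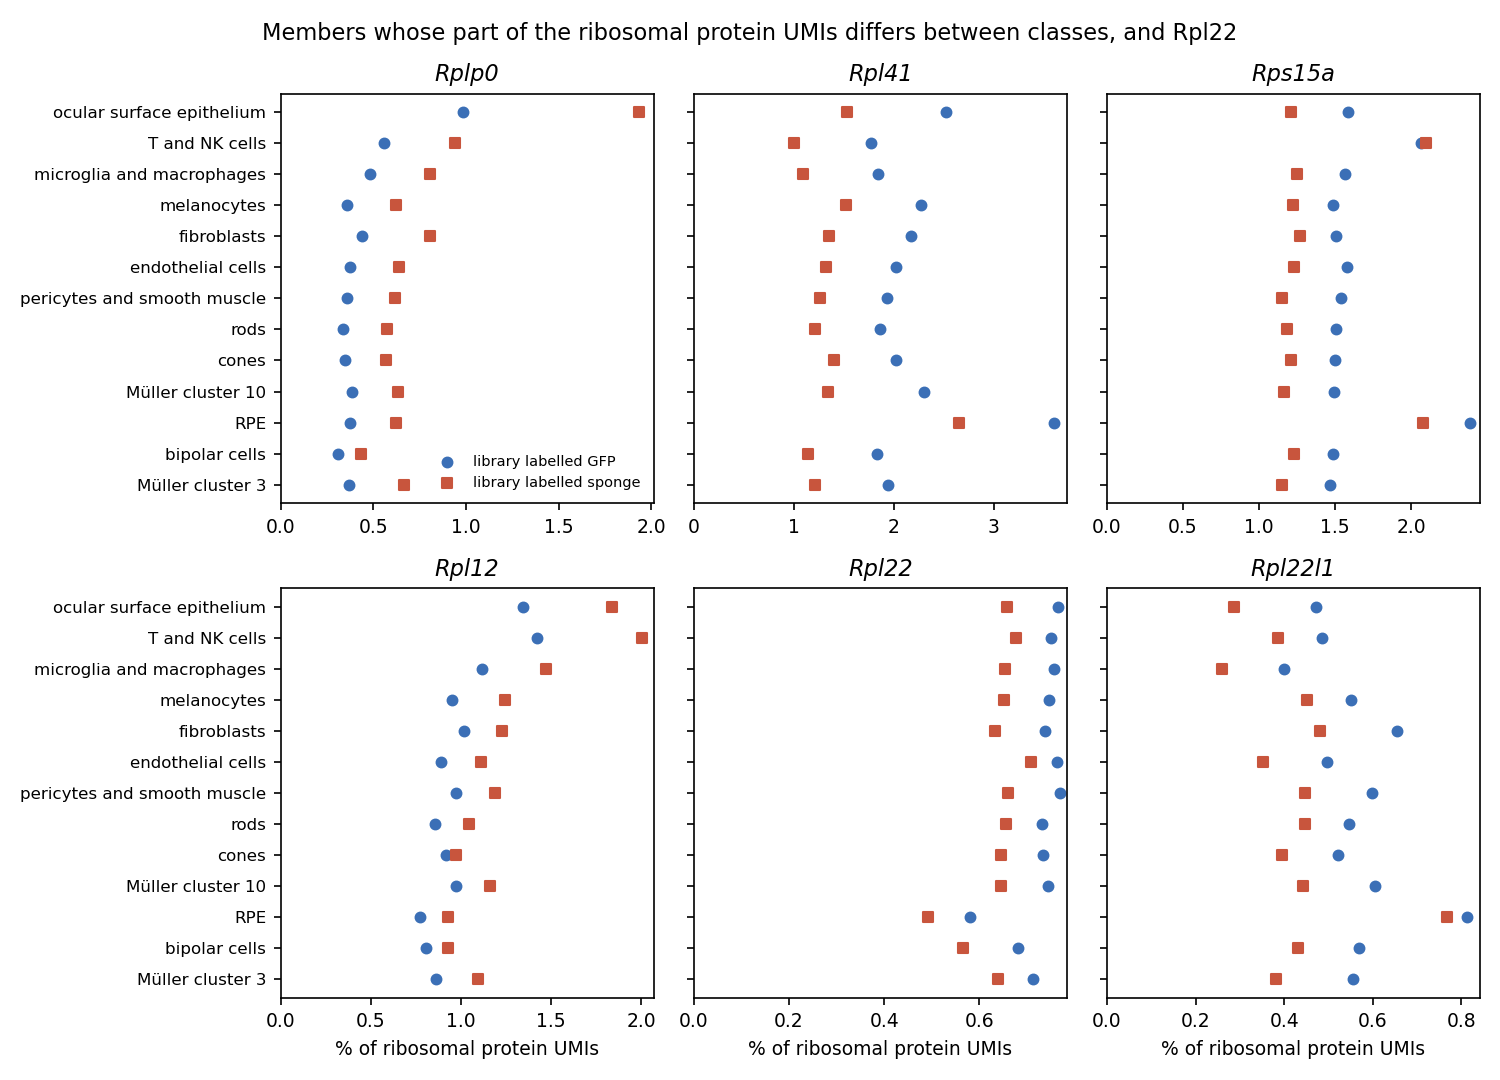
Part of the ribosomal protein UMIs (horizontal axis, percent) taken by Rplp0, Rpl41, Rps15a, Rpl12, Rpl22 and Rpl22l1 in 13 classes, with circles for the library labelled GFP and squares for the library labelled sponge. Epithelium stands out for Rplp0 (0.983% and 1.93%), RPE for Rpl41 (3.60% and 2.66%), for low Rpl22 and for high Rpl22l1.

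The genes whose level over the 13 classes was most like the ribosomal protein total, by the lower Pearson r of both libraries among 1568 genes, were Gm10260 (0.971), Rack1 (0.970), Fau (0.951), Eef1b2 (0.946), Arpc5 (0.941) and Eef1a1 (0.929). Rack1 and Fau encode ribosomal proteins whose symbols fall outside the rule, Eef1b2 and Eef1a1 are elongation factors, and Arpc5 is a subunit of an actin-nucleating complex. Fau followed the short members, with 1210 and 725 CPM in rods (-0.74), and in epithelium with 2080 and 2209 CPM (0.09), and Rack1 followed the long ones, with 289 and 286 CPM in rods (-0.01), and in epithelium with 635 and 1538 CPM (1.28).

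Other genes of translation were compared by lists. Of 22 elongation factors and other genes with TOP messages, 8 were higher in rods (median -0.04, 0 past 1.5-fold either way), 13 in cones (0.02) and in bipolar cells (0.06) and 8 in Müller cluster 3 (-0.10). The medians over all genes measured were 0.08, 0.09, 0.01 and 0.09. More of its genes were higher in other classes: 21 of 22 in T and NK cells (0.73, 14 past 1.5-fold), 18 in epithelium (0.69, 14 past), 19 in fibroblasts (0.59, 12 past) and 19 in microglia and macrophages (0.50, 8 past). Over all genes the medians were 0.07, -0.37, -0.02 and -0.09, and 22.1%, 10.8%, 15.8% and 13.4% were at least 1.5-fold higher. Eef1a1, which brings aminoacyl-tRNA to the ribosome, had 903 and 795.5 CPM in rods (-0.18), and in epithelium 1583 and 2824 CPM (0.83), and Eef2, the translocase, had 218 and 224 CPM (0.04) and 273 and 547 CPM (1.005). Its median lay above that of the members in these 8 classes. For the lists that follow, the median over all genes was 0.08 in rods and -0.37 in epithelium. Of 23 initiation factors, 10 were higher in rods (median -0.04) and 18 in epithelium (0.39). Of 30 ribosome biogenesis genes, 22 were higher in rods (0.13) and 16 in epithelium (0.10). Of the genes of S6 kinases and mTOR, 14 of 16 measured were higher in rods (0.37) and 4 of 17 in epithelium (-0.39), the latter close to the median of all genes there. Of 78 genes of the mitochondrial ribosome, a separate machine of bacterial descent, 36 were higher in rods (-0.02), 34 in Müller cluster 3 (-0.04, all genes 0.09) and 50 in epithelium (0.17). In RPE 65 of the 78 were higher, with a median of 0.35 against -0.19 over all genes.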

How the data were processed

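Deposited gene-by-cell UMI counts were used as the authors made them with Cell Ranger 7.0.0 on mm10, per the submitters' processing notes. Cell calling and the handling of intron reads are not stated in those sources. A barcode was used with 300 genes and 500 UMIs or more and a mitochondrial share of 25% or less. Scrublet called 0 doublets (thresholds 0.514 and 0.723), so that doublet calling had not worked and none were removed; an alternative left out the 10% of cells with the highest scores.

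Cells of both libraries were clustered together without batch correction and without the 81 members (scanpy 1.11.5, leidenalg 0.10.2, igraph 0.11.9, 2000 variable genes, 30 components, 15 neighbours, resolution 1, finer clusters at 2). A cluster was named when at least 3 markers were 2-fold over the median cluster and no rival class reached 0.5 of its score. Its 10 leading genes also had to hold fewer than 2 markers of any rival class, and no more than of its own. Related classes did not count as rivals. These were Müller glia and astrocytes, fibroblasts and pericytes with smooth muscle, microglia with macrophages and B with plasma cells, and amacrine and horizontal cells. This naming rule was set after the clusters were seen. Clustering all genes again changed the classes although 0 members were among the variable genes either way: rods labelled GFP numbered 1420 instead of 3837, and the log2 ratio of their share was -0.41 instead of -0.53, so the extent of the rod class depends on the clustering.

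Counts were summed per class and library (python 3.11.15, numpy 2.4.6, pandas 2.3.3, scipy 1.17.1). Shares have Clopper-Pearson intervals, CPM exact Poisson intervals and ratios exact binomial intervals (95%). Genes with at least 20 counts over both libraries were measured, and 1.5-fold was the size used to count members. Coding length is the median over GENCODE M21 basic transcripts. Named in each class were members among the 3 highest and 3 lowest by the interval bound nearest 1, with at least 50 counts in each library, then the 6 members whose part varied most between classes, the 6 most alike other genes, and members of the gene lists. Names at the ends of the length order, those off its trend and the Rpl22 pair were chosen after their values were seen. The members and lists were chosen with earlier results of these data known. The scripts were tested on simulated data. Values of a few single genes are not reported here.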

Additional observations from a re-analysis of the deposited data

Results flagged for a closer look

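The ribosomal protein share differed between the libraries in opposite directions in different cell classes. The ratio, sponge over GFP by label, was 0.631 in Müller cluster 3, with 75 of 81 members lower, and 1.35 in ocular surface epithelium, with 63 of 81 members higher. The median log2 ratio of the members was -0.63 and 0.43 in these classes, against 0.09 and -0.37 over all genes measured. The difference between these classes was not tested, since each group held 1 library.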

How the results depend on the processing

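No paired analysis was possible because each group held 1 library. Over all kept cells the log2 ratio of the share, -0.01 as reported, was 0.0930 with a stricter filter on cells, 0.0432 without the highest doublet scores, -0.136 with finer clusters weighted equally, -0.0576 without mitochondrial UMIs, -0.190 for the mean of single-cell shares, -0.203 with cells thinned to 1000 UMIs, -0.0447 with median-of-ratios scaling, -0.00684 for core proteins only, -0.0121 without the rod genes and -0.388 in cells of 2000 to 4000 UMIs. Of 149 values by class, 142 did not change direction; rods, cones, bipolar cells, Müller cluster 3, epithelium, T and NK cells and microglia and macrophages had none that did. Those that did were 0.408 in Müller cluster 10 and 0.0248 in RPE in cells of 2000 to 4000 UMIs, 0.0154 (mean of single-cell shares) and 0.0191 (thinned cells) in RPE, -0.0153 in fibroblasts and -0.0908 in melanocytes with finer clusters weighted equally, and 0.153 in pericytes and smooth muscle with the stricter filter. Endothelial cells, at 0.00, lay between -0.0667 and 0.348 and, with no direction of their own, stand among the 142. The 149 values hold only 1 depth bin, 2000 to 4000 UMIs, in which epithelium and T and NK cells had too few cells. In other bins the direction did turn over in bipolar cells at 1000 to 2000 UMIs (ratio 1.07). It also did so in epithelium at 1000 to 2000 UMIs (0.714) and 4000 to 8000 UMIs (0.882). Summed over the 13 classes, with each of the 81 members counted anew in every class, 125 calls were past 1.5-fold higher and 223 lower. At 2-fold these were 20 and 69, but the share of all genes past 2-fold was not counted, so these 2 counts have no background. Of all genes measured, 7.08% (bipolar cells) to 22.1% (T and NK cells) were at least 1.5-fold higher. The share at least 1.5-fold lower ran from 11.9% (cones) to 39.9% (epithelium). The alternatives without the rod genes and by cell depth were chosen after seeing the data. The causes of these changes were not tested. Class names by the highest marker score gave values in 11 classes, and cells of 2000 to 4000 UMIs in 10. Counting intervals are narrow at this depth, but 1 library a group gives no estimate of the spread between animals.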
